A study of Rattus norvegicus with 6 samples.

Results

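The genes described here encode the subunits of voltage-gated calcium channels (symbols beginning Cacn) and voltage-gated sodium channels (symbols beginning Scn and a digit), compared between islets of adult male rats and islets of rats aged 10 days (P10). Members were chosen by symbol alone: every non-control probe whose RefSeq transcript carried such a symbol was taken, and the brightest probe stood for its gene. This gave 39 probes for 36 genes, out of 24684 probes and 13903 named genes on the array. The gene table lists 40 symbols of this kind. Cacna1d, Cacna1s, Cacna2d4 and Scn7a had no probe matched by this route and were not analysed here.

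Islets, the endocrine cell clusters of the pancreas, had been freed with collagenase from 3 adult males and from 3 pools of P10 rats, and each sample was hybridised to its own Agilent array in 1 colour. The labels name no strain, give no age for the adults and do not state the sex of the P10 animals. Adult arrays 2 and 3 differed by little more than spot noise, as did P10 arrays 1 and 2. Each of these pairs was averaged and counted as 1 sample, so every mean, SD and test below has n = 2 per stage, while values are shown for all 3 arrays. P10 arrays 2 and 3 were about as close as P10 arrays 1 and 2, with ratios of the variance between arrays to that of the spots of 0.914 and 0.912, so the SD at P10 may be little more than spot noise. With all 3 P10 arrays averaged to 1 sample, a fit added after seeing the data, 10 channel genes were called higher and 4 lower, against 8.48% and 13.5% of all probes. Cacna1c, Cacnb1, Cacng3 and Cacng7 were among the genes no longer called in that fit, with limma adjusted p-values of 0.0716 to 0.211.

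Voltage-gated calcium channels open when a membrane depolarises and let calcium into the cell. The alpha1 subunit forms the pore, the intracellular beta and the extracellular alpha2delta subunits bring the pore to the membrane and set its gating, and most gamma subunits are better known as partners of AMPA-type glutamate receptors. In the beta cell, glucose metabolism closes potassium channels, the membrane depolarises, and calcium entering through these channels triggers the release of insulin granules. Voltage-gated sodium channels carry the upstroke of the action potential in excitable cells, endocrine cells of the islet among them, and their alpha subunits form the pore while their beta subunits, single-pass membrane proteins, modify gating and adhesion.

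The text below gives levels as log2 signal minus the array's own 75th percentile, so that 0 marks a probe at that percentile. A call is an adjusted p under 0.05 in limma, adjusted by Benjamini-Hochberg across the 18386 tested probes, and differences are adult minus P10. Of the 36 genes, 24 could be tested, since every array of 1 stage or of both gave a probe signal well above background. Over all named genes the tested share was 82.2%. Among the 24, 13 rose in adult islets, 6 fell and 5 passed in neither direction, with a median log2 difference of 1.32. Among the 11425 named genes tested, 23.6% were called higher in adult islets and 28.8% lower, 52.4% in either direction, with a median of -0.13. Over all probes, lncRNAs included, 21.3% were called higher in adult islets and 31% lower, 52.3% in either direction. Because 8 of the 24 entered through 1 stage, which makes a difference more likely, the 16 measured well above background on all 6 arrays give a cleaner count: 11 rose, 3 fell and 2 were not called. Under that stricter filter, 21.8% of all probes were called higher in adult islets and 30% lower. Adult and P10 arrays did not overlap for 21 of the 24 genes, against 78.2% of all named genes tested, so a gap between the arrays of the stages is by itself common on these arrays.

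**Figure D1:**
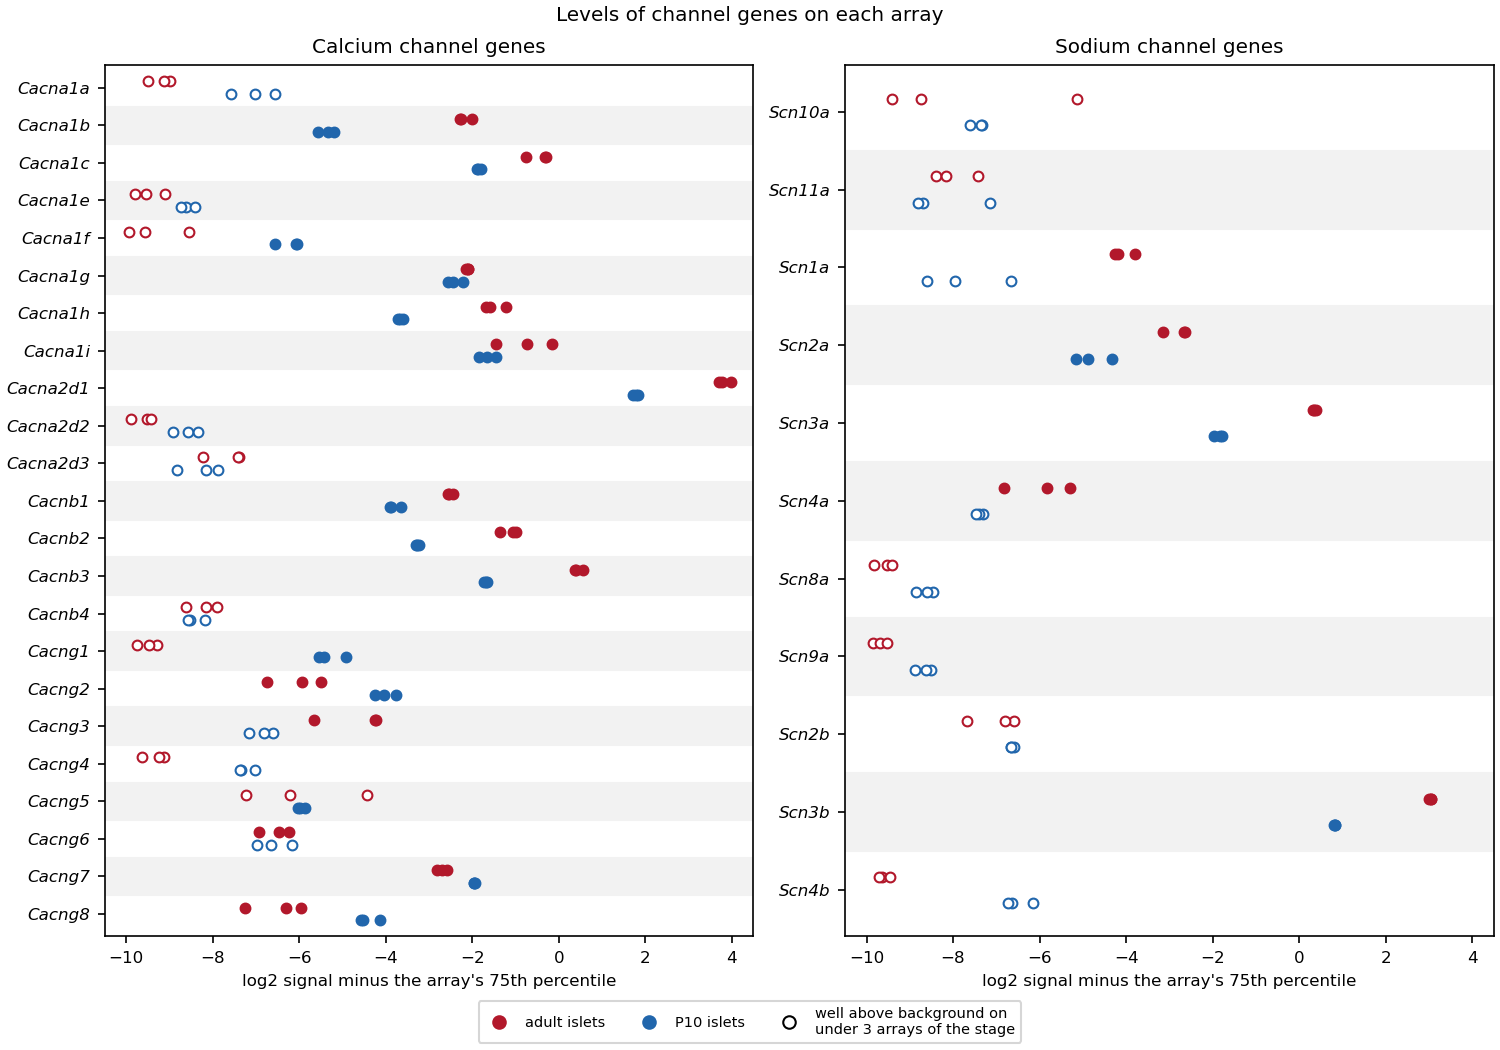
Level of 34 channel genes on each of the 6 arrays, as log2 signal minus the 75th percentile of the array. Adult islets are in red above P10 islets in blue, and open circles mark a stage with fewer than 3 arrays well above background. The adult arrays of Cacna1b, Cacna2d1, Cacnb3, Scn3a and Scn3b stand clear of the P10 arrays of the same gene.

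Promoter sequences are shown for 4 genes whose levels are described below, as the DNA just upstream of genes that moved in different ways: Cacna1b, Cacnb3 and Scn3a, which rose, and Cacng2, which fell. Each is the 250 bases before the annotated start, 5′ to 3′ on the strand of the gene, from RefSeq on the GRCr8 assembly. Capitals mark GC boxes (GGGCGG, or CCGCCC where it lies on the opposite strand). Cacna1b lies at chr3:27944286-27944535 on the minus strand, Cacnb3 at chr7:131666301-131666550 on the plus strand, Scn3a at chr3:70666199-70666448 on the minus strand and Cacng2 at chr7:111577758-111578007 on the minus strand.
Cacna1b: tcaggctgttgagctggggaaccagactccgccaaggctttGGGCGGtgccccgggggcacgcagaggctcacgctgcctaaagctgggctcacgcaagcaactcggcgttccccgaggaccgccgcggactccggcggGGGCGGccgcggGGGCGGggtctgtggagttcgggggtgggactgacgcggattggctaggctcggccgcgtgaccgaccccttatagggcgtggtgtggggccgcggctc
Cacnb3: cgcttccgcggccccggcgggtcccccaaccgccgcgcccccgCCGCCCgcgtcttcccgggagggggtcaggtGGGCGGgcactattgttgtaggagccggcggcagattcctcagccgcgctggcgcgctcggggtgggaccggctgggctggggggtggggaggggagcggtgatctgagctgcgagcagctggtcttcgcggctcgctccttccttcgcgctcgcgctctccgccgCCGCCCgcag
Scn3a: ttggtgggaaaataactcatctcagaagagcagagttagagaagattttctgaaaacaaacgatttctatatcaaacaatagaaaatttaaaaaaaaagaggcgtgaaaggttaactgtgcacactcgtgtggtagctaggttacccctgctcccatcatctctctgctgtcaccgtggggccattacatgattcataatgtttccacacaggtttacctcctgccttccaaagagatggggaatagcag
Cacng2: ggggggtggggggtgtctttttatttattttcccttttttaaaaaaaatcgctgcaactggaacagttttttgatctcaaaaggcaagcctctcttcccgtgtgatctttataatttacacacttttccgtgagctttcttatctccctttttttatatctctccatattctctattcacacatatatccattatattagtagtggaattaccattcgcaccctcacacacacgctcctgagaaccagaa
Cacna1b and Cacnb3 each held 3 GC boxes in 72.0% and 76.4% GC sequence, while Scn3a and Cacng2 held 0 in 41.6% and 38.4% GC sequence. Entries were found for 24 of the 36 genes. At least 1 GC box was present in 5 of the 8 genes called higher that had an entry, in 1 of 3 called lower, in 1 of 3 not called and in 4 of 10 not tested, against 30.5% of 33469 promoters of the same length. On either strand, the cAMP response element TGACGTCA was in none of the 24, against 1.6% of all promoters, and the TATA box TATAAA was in 1, Cacng2, against 12.9%. The E-box CANNTG, whose 2 strands read alike, was in 4 of the 8 genes called higher and in 3 of the 3 called lower, in 3 of 3 not called and in 7 of 10 not tested, against 65.5% of all promoters. These are matches of letters in a window and carry no test. A channel gene with several entries was counted if any of them held the motif, while the shares of all promoters count each entry.

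Among the pore-forming alpha1 subunits of calcium channels, 3 rose in adult islets, 1 fell, 2 were not called and 2 could not be tested. Cacna1b encodes the pore of the N-type channel, known for triggering transmitter release at nerve terminals. Its levels were -2.0, -2.26 and -2.29 on the 3 adult arrays, against -5.34, -5.56 and -5.19 on the 3 P10 arrays. All adult arrays lay well above all P10 arrays, with a narrow spread at both stages. The means were -2.14 ± 0.19 in adult islets and -5.32 ± 0.18 in P10 islets (SD, n = 2 each), a log2 difference of 3.18 with an SE of 0.18 (limma adjusted p = 0.00174), or 9.09-fold. Without any scaling, the signals were 656, 429 and 398 in adult islets and 25.1, 20.6 and 27.4 in P10 islets.

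Cacna1c encodes an L-type pore, the class that carries much of the calcium current of beta cells. It stood at -0.75, -0.30 and -0.31 on adult arrays and at -1.79, -1.88 and -1.87 on P10 arrays. The stages did not overlap, and the spread was wider among the adults, where array 1 was lowest. Cacna1c rose by 1.32 on the log2 scale in adult islets (SE 0.21, limma adjusted p = 0.0113). This call did not hold without P10 replicate 3, where the log2 difference was 1.31 with a limma adjusted p of 0.0818.

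The T-type pores, which open near the resting potential, were measured at both stages and did not all behave alike. Cacna1h was at -1.21, -1.58 and -1.68 on adult arrays and at -3.66, -3.61 and -3.72 on P10 arrays, and it rose by 2.25 (SE 0.20, limma adjusted p = 0.00333), with no overlap. Cacna1g was at -2.10, -2.09 and -2.14 in adult islets and -2.55, -2.44 and -2.21 in P10 islets, a log2 difference of 0.24 (SE 0.16, limma adjusted p = 0.266) that was not called although the arrays did not overlap. Cacna1i was at -1.46, -0.16 and -0.73 on adult arrays and at -1.45, -1.66 and -1.84 on P10 arrays, so that adult array 1 lay within the P10 values. Its log2 difference was 0.75 (SE 0.40, limma adjusted p = 0.186), and without adult replicate 1 it was 1.25 (limma adjusted p = 0.00477). Whether the changes of these 3 genes differ from one another was not tested.

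Cacna1f, the L-type pore best known from photoreceptors of the retina, was the pore-forming gene that fell. Its signals before scaling were 2.69, 5.49 and 2.56 in adult islets, not well above background on any adult array, against 15.2, 14.6 and 10.5 in P10 islets. Cacna1f was tested through its P10 arrays alone, which makes a difference more likely. With normexp background correction its log2 difference was -1.06 and was not called (limma adjusted p = 0.156). Cacna1f was at least 3.33-fold lower in adult islets, with a fitted limma adjusted p of 0.00647. This bound, like the others below, sets a dim probe no lower than the dimmest signal that was well above background on the same array, so it equals the fitted fold where the probe was brighter than that, and it is approximate because the limit of a single probe can be higher. Cacna1a, the P/Q-type pore of nerve terminals, was well above background on 1 P10 array and no adult array. Cacna1e, the R-type pore described in mouse beta cells, was not well above background on any of the 6 arrays, which says nothing beyond this probe.

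Of the auxiliary subunits of calcium channels, the 1 alpha2delta gene tested and all 3 beta genes tested rose. Cacna2d1 encodes the alpha2delta protein that binds gabapentin. Its levels were 3.71, 3.77 and 3.97 on adult arrays and 1.83, 1.79 and 1.72 on P10 arrays. No array of one stage came near those of the other. The means were 3.79 ± 0.11 in adult islets and 1.76 ± 0.07 in P10 islets (SD, n = 2 each), a log2 difference of 2.03 (SE 0.14, limma adjusted p = 0.00226) or 4.08-fold. Cacna2d1 had 3 probes, and the other probes gave log2 differences of 2.06 (limma adjusted p = 0.00571) and 2.14 (limma adjusted p = 0.0053), close to that of the brightest. Cacna2d3 was well above background on 1 adult array and no P10 array, and Cacna2d2 on none.

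Cacnb3, a beta subunit whose loss in mice alters calcium oscillations and insulin secretion of beta cells, was at 0.38, 0.55 and 0.39 on adult arrays and at -1.72, -1.69 and -1.67 on P10 arrays. The arrays of each stage lay close together and the stages far apart. The means were 0.43 ± 0.06 in adult islets and -1.68 ± 0.03 in P10 islets (SD, n = 2 each), a log2 difference of 2.11 (SE 0.13, limma adjusted p = 0.00191) or 4.32-fold. Cacnb2, a beta subunit of islet and heart, was at -1.36, -0.98 and -1.05 in adult islets and at -3.31, -3.23 and -3.27 in P10 islets, and it rose by 2.08 (SE 0.18, limma adjusted p = 0.00316). Cacnb1, the beta subunit that pairs with the skeletal muscle pore, was at -2.57, -2.53 and -2.44 in adult islets and at -3.89, -3.65 and -3.90 in P10 islets, and it rose by 1.31 (SE 0.14, limma adjusted p = 0.00483). Neither gene had overlapping arrays. The call for Cacnb1 did not hold without P10 replicate 3, where the log2 difference was 1.24 with a limma adjusted p of 0.0767. For Cacnb4, no array gave a signal well above background.

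Of the gamma genes, 4 fell in adult islets, 1 rose, 2 were not called and 1 was not tested, with a median log2 difference of -0.77 over the 7 tested. Cacng2 (stargazin) and Cacng8 encode partners of AMPA receptors in the brain. Cacng2 was at -6.75, -5.49 and -5.93 on adult arrays and at -3.77, -4.04 and -4.25 on P10 arrays, a fall by 2.15 on the log2 scale (SE 0.41, limma adjusted p = 0.0188). Cacng8 was at -7.26, -5.96 and -6.31 on adult arrays and at -4.13, -4.58 and -4.52 on P10 arrays, a fall by 2.26 (SE 0.43, limma adjusted p = 0.0178). For both genes adult array 1 was the lowest of the 6 and no adult array reached a P10 value. Their unscaled signals were lower in adult islets as well, from 24.3 to 45.7 against 52.6 to 74.5 in P10 islets for Cacng2, and from 17.1 to 32.8 against 40.5 to 58.2 in P10 islets for Cacng8. Both are dim probes: the dimmest signal well above background was 6.75 to 9.45 on adult arrays and 6.60 to 7.86 on P10 arrays.

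Cacng7, another AMPA receptor partner, was at -2.82, -2.59 and -2.70 on adult arrays and at -1.96, -1.94 and -1.97 on P10 arrays, and fell by 0.77 (SE 0.14, limma adjusted p = 0.0169). The direction of this gene hangs on the scaling, since its unscaled signals were higher in adult islets, 300 to 371 against 252 to 262 in P10 islets. The 75th percentile was 10.93 to 11.36 on adult arrays and 9.92 to 9.99 on P10 arrays on the log2 scale, and a gene counts as lower here when it did not share that gap. With arrays scaled to their median instead, the log2 difference of Cacng7 was -0.47 and was not called (limma adjusted p = 0.0606). Without P10 replicate 3 it was -0.78, with a limma adjusted p of 0.206.

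Cacng1, the gamma subunit of the skeletal muscle channel, had unscaled signals of 3.06, 3.27 and 2.75 in adult islets, none well above background, against 21.8, 22.5 and 33.2 in P10 islets. It was at least 7.21-fold lower in adult islets (fitted limma adjusted p = 0.00192). Cacng1 was tested through its P10 arrays alone, which makes a difference more likely. With normexp background correction its log2 difference was -1.25 and was not called (limma adjusted p = 0.101). Skeletal muscle markers did not move together: of 8 tested, Myh1, Myh2 and Acta1 were called higher in adult islets and Ckm and Tnnt3 lower. Their summed linear signal relative to the 75th percentile was 1.29 to 1.53 in adult islets and 0.367 to 0.391 in P10 islets, while Myh4 and Myod1 were not well above background anywhere. Acta1 made up most of the adult sum, and the median log2 difference of the 8 tested markers was -0.42. The fall of Tnnt3, like that of Cacng7, hangs on the scaling, since its unscaled signals were higher in adult islets. The part of these markers in the value of Cacng1 was not tested.

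Cacng3, an AMPA receptor partner of the cortex, was the gamma gene that rose. It was at -5.67, -4.22 and -4.25 on adult arrays and was not well above background on any P10 array, where its signals of 7.01 to 10.4 nonetheless exceeded the dimmest signal well above background on the same array. Its fold of 3.95 is thus the fitted one (limma adjusted p = 0.0471). Cacng3 was tested through the adult arrays alone, which makes a difference more likely. Within the first of 2 scans, described below, the log2 difference was 1.19, and with normexp background correction it was -0.01 and not called (limma adjusted p = 0.991), against 1.98 over all arrays. The call sat at the edge of the threshold, and the limma adjusted p was 0.052 without adult replicate 3, 0.0507 without P10 replicate 2 and 0.115 without P10 replicate 3.

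Cacng5 rested on 1 array. It was at -4.44 on adult array 1 against -6.21 and -7.23 on the other adult arrays, and at -5.87, -5.98 and -6.02 in P10 islets. Its log2 difference was 0.39 (SE 0.83, limma adjusted p = 0.711), and its direction turned on how that array was used. It was -0.75 without adult replicate 1 (limma adjusted p = 0.00554), but 1.52 both within the first scan, which held that adult array alone (limma adjusted p = 0.000443), and with the scan as a block (limma adjusted p = 0.0171). Cacng6, a gamma gene of muscle, was at -6.94, -6.46 and -6.23 in adult islets and at -6.17, -6.65 and -6.98 in P10 islets, an overlap with a log2 difference of 0.05 (SE 0.32, limma adjusted p = 0.901). Cacng4 was not well above background on any array.

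**Figure D2:**
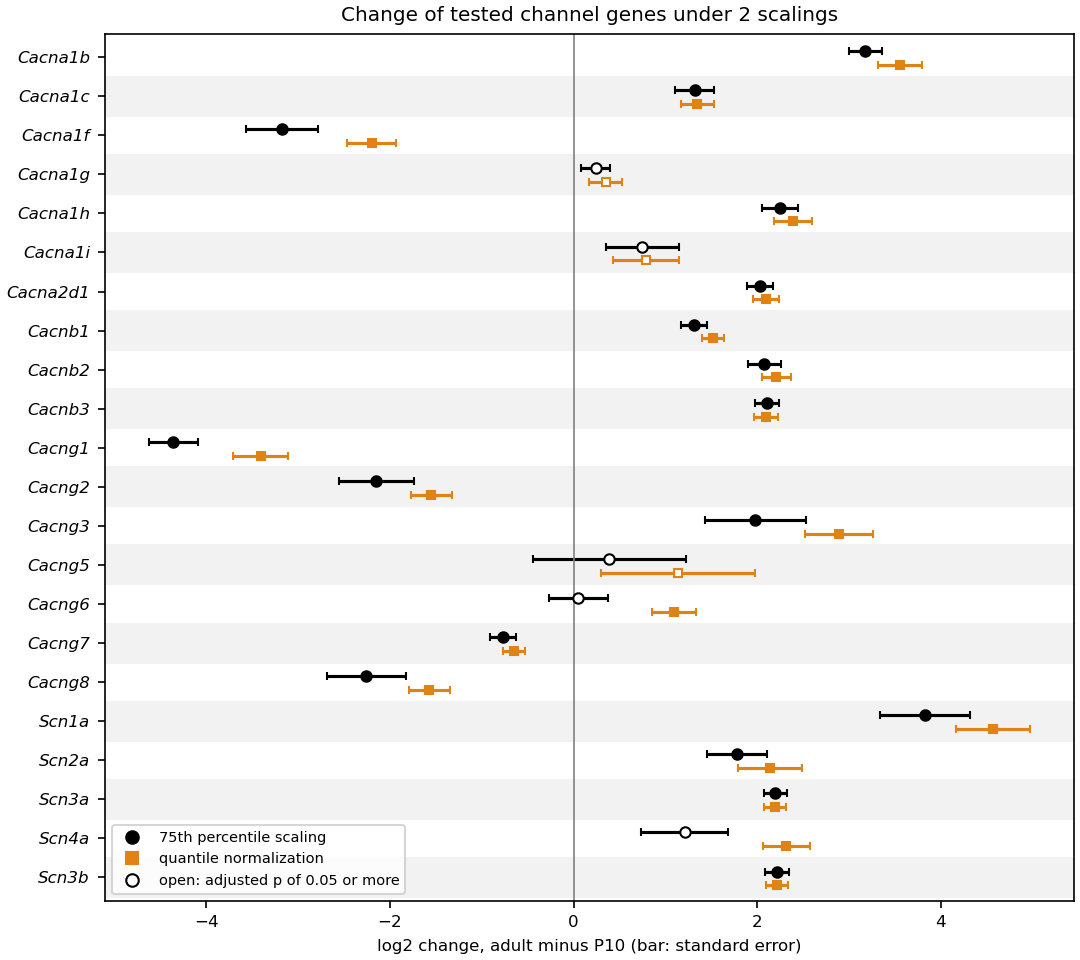
Log2 difference, adult minus P10, of 22 channel genes tested, with bars of 1 standard error, under 75th percentile scaling (circles) and quantile normalization (squares). Filled markers have a limma adjusted p under 0.05. Most genes keep their place under both scalings, while Scn4a, not well above background on any P10 array, and Cacng6, well above it on 1, become filled under quantile normalization.

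Among the pore-forming sodium channel genes, Scn1a, Scn2a and Scn3a rose. Scn3a encodes a sodium channel of embryonic brain that is also present in rodent islet cells. Its levels were 0.34, 0.32 and 0.40 on adult arrays and -1.97, -1.78 and -1.83 on P10 arrays. The adult arrays were nearly equal and stood clear of the P10 arrays. The means were 0.35 ± 0.02 in adult islets and -1.85 ± 0.03 in P10 islets (SD, n = 2 each), a log2 difference of 2.20 (SE 0.13, limma adjusted p = 0.00175) or 4.60-fold.

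Scn1a and Scn2a, sodium channel pores of central neurons, rose as well. Scn2a was at -3.14, -2.63 and -2.66 on adult arrays and at -5.16, -4.89 and -4.32 on P10 arrays, with no overlap, and rose by 1.78 (SE 0.33, limma adjusted p = 0.0178). Scn1a was at -4.26, -4.19 and -3.80 on adult arrays and was not well above background on any P10 array. It was tested through the adult arrays alone, which makes a difference more likely. Scn1a was at least 7.52-fold higher in adult islets (fitted limma adjusted p = 0.00738). With normexp neither was called, with log2 differences of 0.78 for Scn2a (limma adjusted p = 0.134) and 0.56 for Scn1a (limma adjusted p = 0.191). Scn1a, Scn2a, Scn3a and Scn9a all map to chromosome 3. The probe of Scn9a, a pore of sensory neurons and of mouse beta cells, was not well above background on any array, with signals of 2.47 to 2.82 in adult islets and 2.14 to 2.79 in P10 islets.

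Scn4a, the pore of skeletal muscle, was at -6.83, -5.30 and -5.83 in adult islets and was not well above background at P10. It was not called (limma adjusted p = 0.099). Its log2 difference, which rests on P10 signals not well above background, ran from -0.42 with normexp to 2.32 with quantile normalization, so its direction and call hung on the setting. Of the genes not tested, Scn10a, a pore of nociceptive neurons, had an unscaled signal of 75.1 on adult array 1 against 4.75 and 2.87 on the other adult arrays and 5.23 to 6.11 in P10 islets. No array gave a signal well above background for Scn8a and Scn11a.

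Scn3b, a sodium channel beta gene whose product binds the pore without a disulfide bond, rose in adult islets. It was at 3.01, 3.05 and 3.06 on adult arrays and at 0.80, 0.82 and 0.82 on P10 arrays. The arrays within each stage were almost identical and the stages did not overlap. Its log2 difference was 2.22 (SE 0.13, limma adjusted p = 0.00174), or 4.65-fold. The disulfide-linked beta subunits were dim: Scn2b was well above background on 2 adult arrays and no P10 array, and Scn4b on 1 P10 array and no adult array.

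The arrays were read in 2 scans, the first with adult array 1 and all 3 P10 arrays, the second with adult arrays 2 and 3. Within the first scan, the log2 difference was 3.36 for Cacna1b, 1.93 for Cacna2d1, 2.07 for Cacnb3, 2.20 for Scn3a and 2.19 for Scn3b. These are close to the values of the same genes over all arrays. That fit includes every array of the first scan, so the closeness is partly built in. Other genes moved more: Cacng5 was 1.52 in the first scan against 0.39 over all arrays, Cacng3 1.19 against 1.98, Scn4a 0.56 against 1.21 and Cacna1i 0.19 against 0.75. Cacng2 was -2.73 in the first scan against -2.15 over all arrays, Cacng8 -2.85 against -2.26 and Cacna1f -3.7 against -3.18. Adult array 1 and the other adult arrays were in different scans, so the spread between adult samples and a difference between scans cannot be told apart. In that scan 15 channel genes were called higher and 6 lower, where 30.5% of all probes were called higher and 49.4% lower, with 1 adult array assumed to vary like the P10 arrays. Across the 22 other settings tried, Cacna1b, Cacna1h, Cacna2d1, Cacnb2, Cacnb3, Scn3a and Scn3b were called higher every time.

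Markers of other cells differed between the stages as well. Their counts stand beside 23.6% of named genes called higher in adult islets and 28.8% lower. In whole islets, fewer cells of a type and less RNA per cell cannot be told apart. Of 8 markers of mature beta cells tested, 8 rose in adult islets, and their summed linear signal relative to the 75th percentile was 91.7 to 99.3 in adult islets and 11.6 to 12.1 in P10 islets. Markers of neurons summed to 37.0 to 40.9 in adult islets and 9.57 to 9.97 in P10 islets, with 7 of 12 higher (Stmn2 and Tubb3 among them) and 2 lower (Elavl3 and Nefh). Slc18a3, Rbfox3 and Map2 were not called. The fall of Nefh hangs on the scaling, since its unscaled signals were higher in adult islets. Most of the adult sum came from 1 gene, Uchl1, at 4.83, 4.83 and 4.71 on adult arrays and 2.23, 2.25 and 2.24 on P10 arrays. Acinar cell markers summed to 492 to 695 in adult islets and 1450 to 1560 in P10 islets, while enterocyte markers summed to 7.57 to 8.45 in adult islets and 272 to 287 in P10 islets. Of 10 leukocyte markers, 10 rose, and they summed to 20.0 to 22.3 in adult islets and 3.63 to 3.73 in P10 islets. Smooth muscle and pericyte markers, with 4 of 7 higher and 1 lower, summed to 30.3 to 32.4 in adult islets and 12.1 to 13.0 in P10 islets. Islet hormone and granule genes summed to 556 to 709 in adult islets and 620 to 681 in P10 islets. Alpha cell markers had 4 of 7 higher and 2 lower, and delta cell markers 1 of 4 higher and 0 lower. Schwann cell and glia markers had 3 of 9 higher and 2 lower, and fibroblast markers 2 of 5 higher and 3 lower. Endothelial markers had 0 of 4 called, and proliferation markers 4 of 4 lower. The part of these differences in the channel gene values was not tested.

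**Figure D3:**
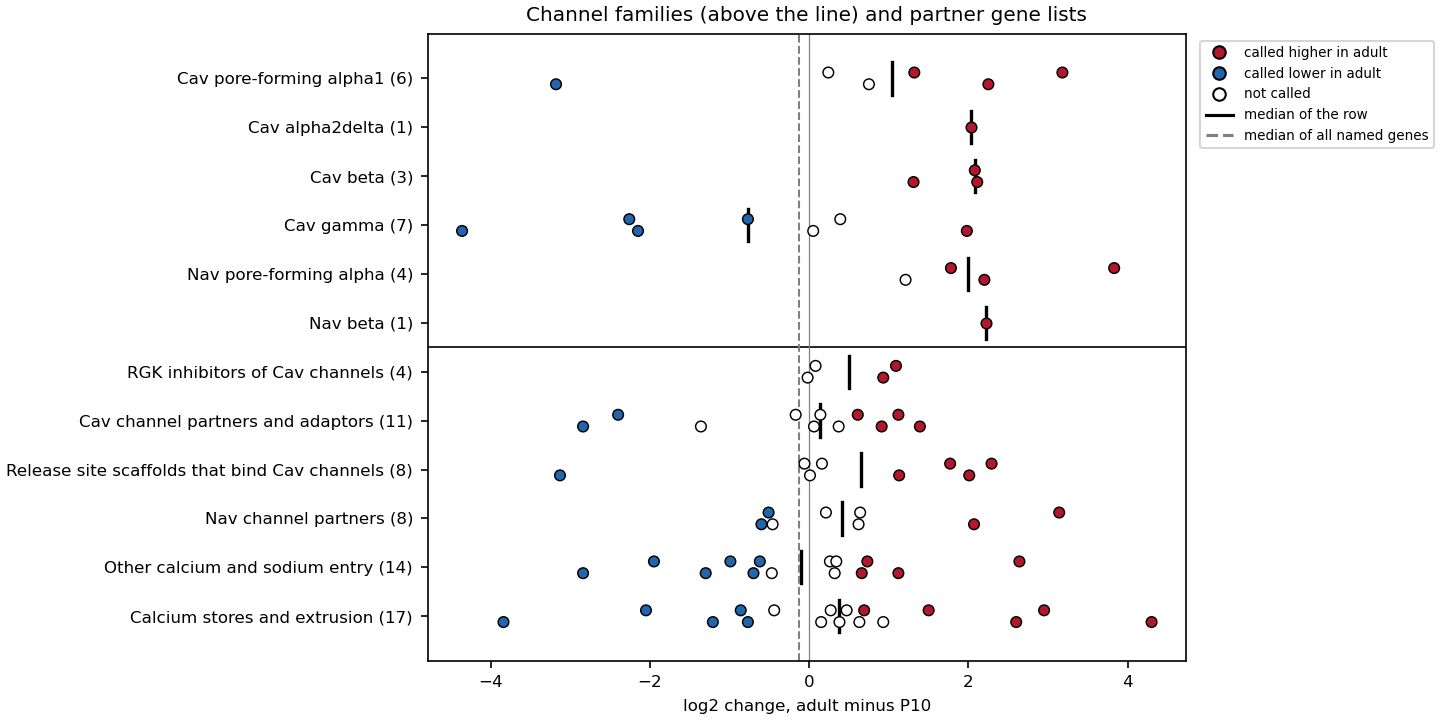
Log2 difference, adult minus P10, of 22 tested channel genes by subunit family (above the line) and of each tested gene of 6 partner lists (below it), with the number tested in brackets. Short bars mark the median of a row and the dashed line the median of all named genes, -0.13. The Cav beta and alpha2delta rows hold called rises alone, and the Cav gamma row has its median at -0.77.

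Genes that work with the channels were described by lists, whose counts stand beside 23.6% of named genes called higher in adult islets and 28.8% lower. RGK proteins are small GTP-binding proteins that inhibit calcium channels by binding their beta subunits. Of the 4 tested, Gem rose by 1.09 (limma adjusted p = 0.0146) and Rem2 by 0.93 (limma adjusted p = 0.0341), while Rrad and Rem1 had log2 differences of 0.08 and -0.02 (limma adjusted p = 0.692 and 0.926). The list's median was 0.51, against -0.13 over all named genes. Without P10 replicate 3, 0 of the 4 were called by limma, where 8.61% of all probes were called higher in adult islets and 14% lower.

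Scaffolds of the release site, which hold calcium channels near docked vesicles in neurons, had 4 of 8 tested genes higher and 1 lower, against 23.6% and 28.8% of named genes, and a median of 0.65. Bsn (bassoon) was the largest rise, at 0.64 in adult islets and -1.66 in P10 islets on average, a difference of 2.29 (limma adjusted p = 0.00206). Rims2, which links granules to calcium channels in beta cells, rose by 2.01 (limma adjusted p = 0.00496), Pclo (piccolo) by 1.77 (limma adjusted p = 0.00289) and Rims3 by 1.13 (limma adjusted p = 0.0476). Rims4 fell by 3.13 (limma adjusted p = 0.00439). Rims2 and Rims3 were well above background on 1 P10 array, and Rims4 on 1 adult array. The sizes of their differences thus rest partly on signals not well above background. Among probes well above background on all 6 arrays, 2 scaffolds were called higher and 0 lower, against 21.8% and 30% of all probes. Rims1, Unc13b and Erc2 had log2 differences of -0.06, 0.16 and 0.01 and were not called, and Unc13a was not well above background on any array. With normexp, 1 scaffold was called higher and 0 lower, against 11.6% and 14.8% of all probes.

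In the remaining lists the calls ran in both directions, as they did among all named genes (23.6% higher, 28.8% lower). Calcium channel adaptors had 4 of 11 genes higher and 2 lower, from Cbarp, an inhibitor of channel activity, which rose by 1.39 (limma adjusted p = 0.0125), to Stac3, an adaptor of the muscle channel, which was at least 5.84-fold lower in adult islets (fitted limma adjusted p = 0.00142). Cabp4, called higher, was well above background on no P10 array, and its stages overlapped. Akap5, called lower, was well above background on 1 adult array, and Stac3 on none. Among probes well above background on all 6 arrays, 3 adaptors were called higher and 0 lower, against 21.8% and 30% of all probes. Sodium channel partners had 2 of 8 higher and 2 lower, with the cell adhesion protein Nfasc the largest rise at 3.14 (limma adjusted p = 0.00134) and the ubiquitin ligase Nedd4 the largest fall at -0.60 (limma adjusted p = 0.0284). As for Cacng7, the fall of Nedd4 hangs on the scaling, since its unscaled signals were higher in adult islets. The same holds for the called fall of Fgf12 in this list. It also holds for those of Orai1, Trpc6 and Piezo1 among other entry routes, and of Itpr3 and Atp2b1 among stores and extrusion. With median scaling and with normexp, 0 sodium channel partners were called lower, against 25.3% and 14.8% of all probes. Other routes of calcium and sodium entry had 4 of 14 higher and 6 lower. The cation channel Trpc1 rose by 2.64 (limma adjusted p = 0.002) and the calcium-activated cation channel Trpm4 fell by 2.84 (limma adjusted p = 0.00533). Only 1 adult array gave a signal well above background for Trpm4, so the size of its fall is approximate. Among genes of calcium stores and extrusion, 5 of 17 rose and 5 fell, and both extremes were plasma membrane calcium pumps: Atp2b2 rose by 4.30 (limma adjusted p = 0.00131) and Atp2b4 fell by 3.84 (limma adjusted p = 0.0025). Without P10 replicate 3, the calls were 0 higher among the adaptors, 0 lower among the sodium channel partners, 1 higher and 2 lower among other entry routes, and 3 higher and 1 lower among stores and extrusion, while calls over all probes dropped to 8.61% higher and 14% lower.

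**Figure D4:**
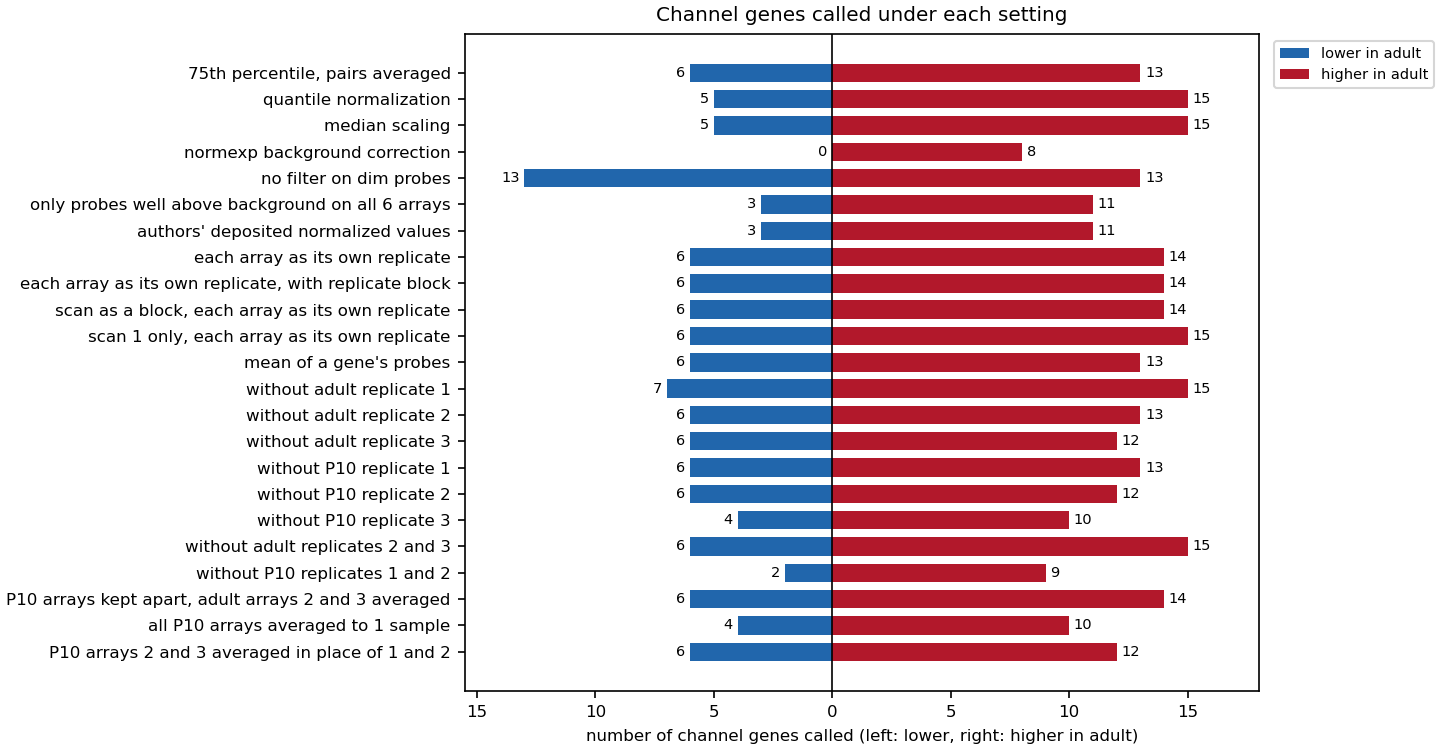
Number of channel genes called lower (left, blue) and higher (right, red) in adult islets under each processing setting. The counts are 13 higher and 6 lower with 75th percentile scaling and averaged pairs, 8 and 0 with normexp, and 9 and 2 without P10 replicates 1 and 2.

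The counts depended on how dim signals were treated, as the plot of genes called per setting shows. With normexp background correction, 8 channel genes were called higher and 0 lower, against 11.6% and 14.8% of all probes, and 14 channel genes had an unadjusted p under 0.05. None of the 6 genes that had fallen kept its call there, and neither did the rises of Cacna1c, Cacnb1, Cacng3, Scn1a and Scn2a. The rises of the auxiliary subunits Cacna2d1, Cacnb2, Cacnb3 and Scn3b and of the pores Cacna1b, Cacna1h and Scn3a kept theirs. Without P10 replicates 1 and 2, which leaves 1 P10 array assumed to vary like the adult samples, the rises of Cacna1c, Cacnb1, Cacng3 and Scn2a and the falls of Cacng2, Cacng7 and Cacng8 were no longer called, with limma adjusted p-values of 0.051 to 0.222.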

How the data were processed

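RNA of islets from 3 adult rats and 3 pools of P10 rats carried Cy3. Per the submitters' processing notes, Agilent Feature Extraction 11.0.1.1 gave the spot values. Per the file headers, the deposited intensity of a spot was background-subtracted, with no scaling of one array to another. Tables of log2 values deposited by the authors cover 11062 mRNA and 4976 lncRNA probes. Their method is not given in the sources used here, and 99.99% of the mRNA and 96.05% of the lncRNA values fell within 0.05 of the processed signals after quantile normalization.

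Flagged spots were left out, the log2 signals of a probe's spots were averaged, and each array's 75th percentile was subtracted. Between 17933 and 18901 probes of 24684 were well above background per array, 0 were saturated, and precision is limited by the number of arrays. Genes were named from RefSeq accessions through a table of the GRCr8 assembly. Differences between adult arrays 2 and 3 correlated at 0.106 over spots of one probe, and those between P10 arrays 1 and 2 at 0.08, against 0.854 and 0.88 for the other adult pairs and 0.138 and 0.245 for the other P10 pairs, so the first 2 pairs were averaged. P10 arrays 2 and 3 were also close, and fits that average them instead, or all 3 P10 arrays, were added after seeing the data. The stage contrast used limma 3.58.1 (lmFit, then eBayes) under R 4.3.3. The p-values rest on the spread between these counted samples, which at P10 may be little more than spot noise. Adult array 1 was read in another scan than adult arrays 2 and 3, so the adult spread does not separate sample from scan. The p-values are thus no measure of the spread between animals at both stages. On simulated data with 18386 probes the fit recovered 68% of log2 changes of 1 and 95% of changes of 2, with 3.91% of unchanged probes called. The simulated samples were independent, with a spread taken from these counted samples, equal at both stages, and no scan effect. These rates therefore do not cover the limits of the spread given above.

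Channel genes are given by name, except that results of some are not reported here, though the counts over all channel genes include them. Of the partner lists, the largest called rise and fall are named, with all RGK proteins and release site scaffolds. Some other genes are named where their calls hang on the scaling or on dim signals. The channel genes and lists were chosen with earlier results of these data known, so they are no independent support. Alternatives covered scaling, background correction, the filter on dim probes, the authors' values, averaging, scan, probes and replicates. Normexp with an offset of 50 used the median spot signal in place of the mean signal planned, which was not in the files used here. The pairing check of same-numbered arrays gave correlations of -0.318, 0.085 and -0.358 over 15891 probes and showed no pairing by number. With several arrays of a stage so close together, it cannot settle whether the samples were paired.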

Additional observations from a re-analysis of the deposited data

How the results depend on the processing

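With 2 counted samples per stage, calls rest on few samples, and dim probes rest on signals close to background. Against 13 channel genes higher in adult islets and 6 lower, and 3914 and 5705 probes, normexp gave 8 and 0 channel genes and 2130 and 2727 probes. No filter on dim probes gave 13 channel genes and 8599 probes lower, which adds probes not well above background at either stage. Both the probes well above background on all 6 arrays and the authors' values gave 3 lower, with 16 channel genes tested instead of 24. The scan as a block gave 9057 probes lower, and scan 1 alone 9032. With each array as its own replicate, the replicate block gave 14 higher and 6 lower, as did the fit without it, and moved no channel gene's call, while all probes called were 4713 higher and 6786 lower with the block against 5307 and 7470 without. Leaving out 1 array gave 10 to 15 channel genes higher and 4 to 7 lower, with 1588 to 5907 probes higher and 2574 to 7616 lower. The lowest counts came without P10 replicate 3 and the highest without adult replicate 1. Without adult replicates 2 and 3, 8942 probes were lower. Without P10 replicates 1 and 2, 2 channel genes were lower, and 1576 probes were higher and 2361 lower. Quantile normalization and median scaling each gave 15 higher and 5 lower, and put 49.7% and 52.3% of called probes higher in adult islets, against 40.7%. Signs turned for Cacng3 (-0.01), Cacng5 (-0.18), Cacng6 (-0.56) and Scn4a (-0.42) with normexp, none of them called. Cacng5 was 0.00 with each array as its own replicate, with and without the replicate block, and ran from -0.75 without adult replicate 1 to 0.65 without adult replicate 3. It was called higher at 1.52 with the scan as a block and within scan 1, and at 1.53 without adult replicates 2 and 3. Cacng6 was -0.34 with the scan as a block and within scan 1, -0.25 without adult replicates 2 and 3, and ran from -0.24 without P10 replicate 3 to 0.35 without adult replicate 1. Keeping P10 arrays apart, chosen after seeing the data, gave 14 higher and 6 lower, with 4907 and 7286 probes, and -0.04 for Cacng6. Also added later, averaging all P10 arrays to 1 sample gave 10 higher and 4 lower, with 1565 and 2494 probes and -0.04 for Cacng6, and averaging P10 arrays 2 and 3 in place of 1 and 2 gave 12 higher and 6 lower, with -0.15 for Cacng6. The cause of these shifts was not tested.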
